A study of Mus musculus with 24 samples.

Results

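Replication-dependent histone genes supply the core and linker histones that package newly copied DNA. They were taken as every gene of the deposited table whose symbol begins with Hist1h, Hist2h, Hist3h or Hist4h and whose value reached 0 log2 CPM (CPM being tags scaled to the size of the library) in at least 4 libraries. All 64 such symbols passed that filter, so no member was lost, out of 13272 genes that passed it and 15390 in the table. By name they were 5 linker histone H1 genes, 20 H2A, 14 H2B, 12 H3 and 13 H4 genes. On GRCm38, 53 with a Hist1 symbol lie on chromosome 13, 9 in the Hist2 cluster on chromosome 3, 1 on chromosome 11 and 1 on chromosome 6. Of the 53, Hist1h2al lies apart from the Hist1 cluster, at 51202727 to 51203065. GENCODE M21 annotates it as a processed pseudogene.

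The 24 libraries were 3′ tag libraries, made by oligo-dT priming of total RNA, from MC38, a mouse colon carcinoma line. The cells carried an Ado guide (Ado KO; Ado encodes a thiol dioxygenase) or a control guide. They were untreated, treated with the cytokine TNF for 1 h, or treated for 6 h. Each genotype had 2 guide populations with 2 libraries each, so the 6 groups (Ado KO untreated, Ado KO TNF 1 h, Ado KO TNF 6 h, control untreated, control TNF 1 h, control TNF 6 h) held 4 libraries each. All cells carried a guide RNA, and no unedited parental library was analysed here. No untreated library kept for 6 h was analysed here, so TNF at 6 h and time in culture cannot be told apart. Nothing in the labels says that the 2 libraries of a population were separate cultures, so the error behind each p-value may be technical in part.

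Most replication-dependent histone messages end in a short stem-loop, not in a poly(A) tail. The stem-loop is bound by SLBP, and the U7 small ribonucleoprotein directs the cut just after it. These messages accumulate in S phase and are degraded when DNA synthesis stops. An oligo-dT primer therefore reads only the copies that carry a poly(A) tail or an internal run of A, not the whole message pool, and every level below is of that readable fraction.

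The stem-loops of members that the results turn on are shown because their stems separate H4 from the other classes and because the place of the loop in the transcript differs between members. The 16 bases of the stem-loop are in capitals, read from the GENCODE M21 transcripts.
Hist1h1c (H1): caaaaGGCTCTTTTCAGAGCCacc
Hist1h2ao (H2A): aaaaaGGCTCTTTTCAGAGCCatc
Hist1h2ac (H2A): ccaaaGGCTCTTTTCAGAGCCccc
Hist1h2bk (H2B): ccaaaGGCTCTTTTAAGAGCCact
Hist1h3c (H3): aaaaaGGCTCTTTTAAGAGCCacc
Hist2h3c1 (H3): acaaaGGCTCTTTTCAGAGCCacc
Hist1h4n (H4): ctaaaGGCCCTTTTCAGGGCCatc
Hist1h4i (H4): ttaaaGGCCCTTTTTAGGGCCacc

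The form sought was a stem of 6 paired bases that begins GGC or GGT, around a loop of 4 with TT in its middle. Such a stem-loop was found in the annotated transcripts of 40 of 64 members (3 of 5 H1, 11 of 20 H2A, 7 of 14 H2B, 8 of 12 H3 and 11 of 13 H4). It was found in 39 of 10739 other protein-coding genes, or 0.363%. The form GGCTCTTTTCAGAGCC stood in 23 members of H1, H2A, H2B and H3 and in 0 H4 members. The H4 stems were instead GGCCC paired with GGGCC, in 9 members, or GGTCC paired with GGACC, in 2. Of the 40 members, 21 had at most 100 annotated bases after the loop and 19 had more. The remaining 24 annotated transcripts held no such stem-loop, which says only that these letters are not in the annotated sequence.

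Many members share sequence, and this limits how far they can be counted as separate measurements. The share of a member's 50-base stretches found in no other member ran from 0% to 100%, with a median of 49.0%, and was over 50% in 32 members. Of the 64 members, 60 shared at least 1 stretch of 50 bases with another member, and Hist1h1a, Hist1h1b, Hist2h2be and Hist4h4 did not. Some also shared such stretches with genes that are not members, 88 of them for Hist1h2bc and 12 for Hist4h4. An H3 gene shared such a stretch with 11 other members, which is every other H3 gene, and the median H2A gene shared one with 18.5. Tags from such copies can be assigned to the wrong gene or left out, and which was done is not given in the sources used here. Hist1h2ab and Hist1h2ai differed by at most 0.07 log2 CPM in every one of the 24 libraries. Across libraries the median correlation between members of a class was 0.81 for H1, 0.79 for H2A, 0.71 for H2B, 0.79 for H3 and 0.78 for H4 (24 libraries that share the normalisation). Counts of members below are therefore counts of rows, not of independent genes.

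If the lowest value of the table stands for 0 tags and an offset of 0.5, a value of 0 log2 CPM is 4.6 tags and 2 log2 CPM is 19.9 tags, so most H2B, H3 and H4 rows rest on few tags. Ado itself averaged 5.35 ± 0.09, 5.35 ± 0.16 and 5.30 ± 0.20 log2 CPM in Ado KO cells without TNF, after 1 h and after 6 h (SD, n = 4), against 5.26 ± 0.08, 5.19 ± 0.15 and 5.14 ± 0.10 in control cells. A 3′ tag does not check the edit. Of 9 colon epithelial markers 3 were in the table and 1, Krt8, passed the filter, at a mean of -0.70 log2 CPM, and their summed level was 0.294 to 3.37 CPM. Of 8 fibroblast and mesenchymal markers 6 passed, led by Vim at 10.48 log2 CPM, with sums of 1541 to 2007 CPM. Of 7 immune markers 2 passed (sums of 5.05 to 19.0 CPM), and of 6 endothelial and pericyte markers 3 (sums of 1.25 to 9.11 CPM).

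One library, the control TNF 1 h library of guide 1, replicate 2, stood apart in its H1 values. It was picked out after the data were seen. All 5 linker histone genes were high in it. Hist1h1b read 7.00 log2 CPM there and 4.73, 4.71 and 4.76 in the other 3 control TNF 1 h libraries. Hist1h1e read 8.44 there and 6.34, 6.60 and 6.58 in the others, and Hist1h1a read 6.05 there and 2.60, 2.50 and 2.77 in the others. Summed over the class, H1 stood at 677 CPM in that library and at 145 to 171 CPM in the other 3. The library held 146 genes at least 1 log2 above all 3 others of its group, against 2 to 76 for the other 23 libraries. Mitochondrially encoded genes took 3.58% of its sum, the highest share of the 24 libraries, which lay from 1.84% upward. The part of RNA quality or priming in this was not tested. The results at 1 h are given with and without that library.

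**Figure D1:**
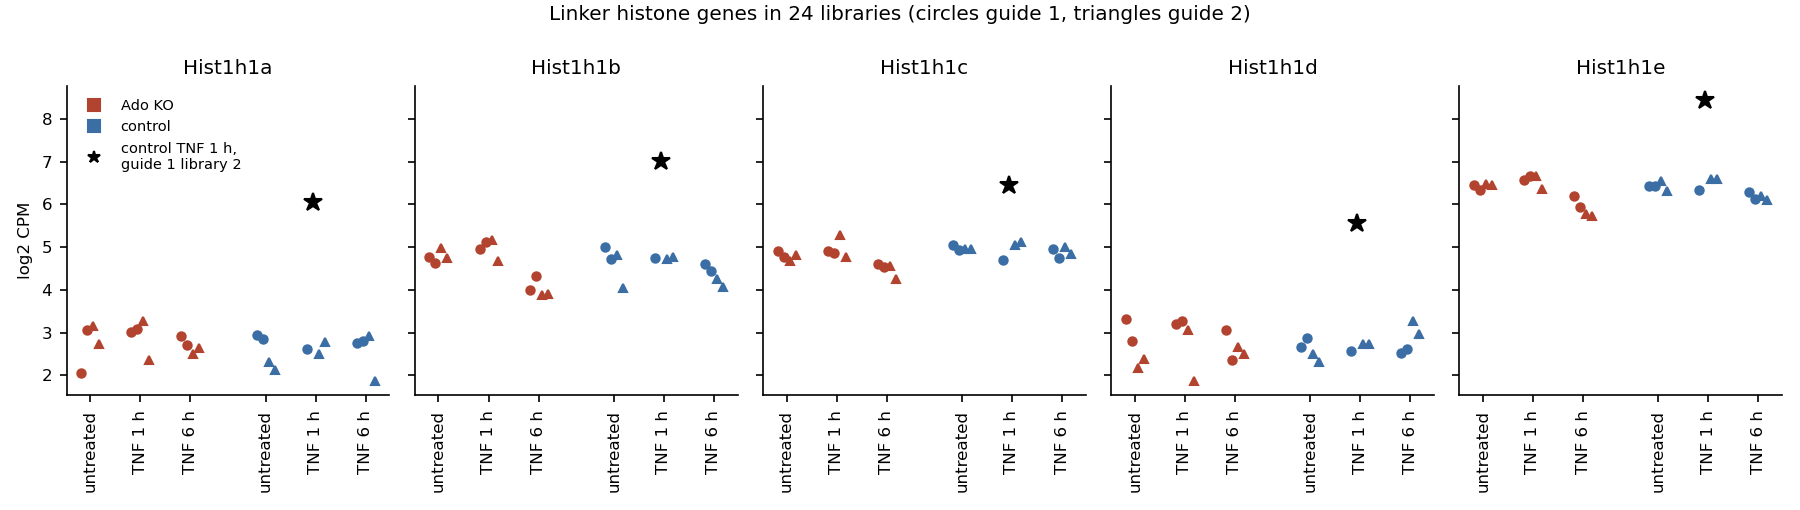
Level of the 5 linker histone genes in log2 CPM (y axis) in each of 24 libraries by group (x axis), Ado KO in red and control in blue; the star is the control TNF 1 h library of guide 1, replicate 2, and circles and triangles are guides 1 and 2. In all 5 panels the star lies above every other library of its group.

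H2A genes gave nearly all of the histone signal. In Ado KO cells the summed H2A level was 7020 to 9730 CPM untreated, 8836 to 10459 CPM at 1 h and 6465 to 7829 CPM at 6 h. In control cells it was 6918 to 7555 CPM untreated, 8008 to 8655 CPM at 1 h and 6762 to 7737 CPM at 6 h. This was 91.7% to 96.9% of the histone sum of a library. All members together took 0.683% to 1.08% of a library. The other classes were far lower. H1 stood at 98.5 to 195 CPM without the outlying library. With all 24 libraries, H4 stood at 49.9 to 183 CPM, H2B at 27.6 to 95.4 CPM and H3 at 8.55 to 78.8 CPM. The outlying library also had the lowest H4 sum, 49.9 CPM, and the next lowest was 62.0 CPM. Since 3′ tags are counted about once per message, these levels were not divided by length. H1 and H4 overlapped, as did H4 and H2B, and H2B and H3, over the 24 libraries.

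**Figure D2:**
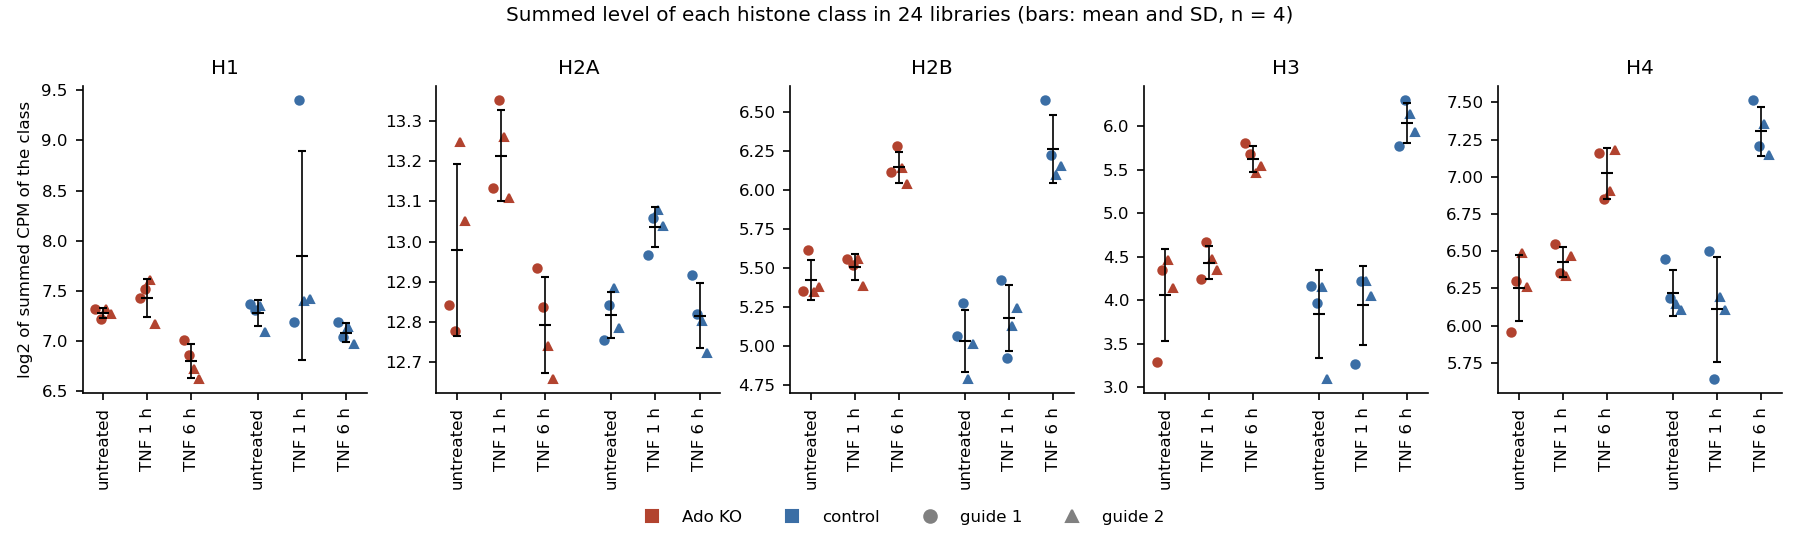
Summed CPM of each histone class on a log2 scale (y axis) in each library by group (x axis), Ado KO in red and control in blue, circles for guide 1 and triangles for guide 2, with the mean and SD of the 4 log2 values. H2B, H3 and H4 are higher in all 4 TNF 6 h libraries than in all 4 untreated libraries of each genotype, and H1 and H2A are not.

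By class sums, H3 had the largest ratio of 6 h to untreated cells. By the median member in Ado KO cells H4 had the larger difference, and 1 gene, Hist1h4i, made up 30.5% to 75.7% of the H4 sum. The summed H3 level was 55.9, 51.1, 43.9 and 46.5 CPM in Ado KO cells at 6 h, against 9.78, 20.3, 22.1 and 17.7 CPM in untreated Ado KO cells. In control cells it was 54.6, 78.8, 70.6 and 60.9 CPM at 6 h, against 17.9, 15.6, 17.7 and 8.55 CPM untreated. The 6 h libraries lay above the untreated ones without overlap in both genotypes. The ratio of means was 2.83 in Ado KO cells and 4.43 in control cells. H4 averaged 131 ± 15.4 CPM in Ado KO cells at 6 h and 76.8 ± 11.4 CPM untreated (SD, n = 4), and 159 ± 18.5 CPM in control cells at 6 h and 74.9 ± 8.33 CPM untreated. H2B averaged 70.8 ± 5.06 CPM in Ado KO cells at 6 h and 43.0 ± 4.07 CPM untreated, and 77.4 ± 12.3 CPM in control cells at 6 h and 32.9 ± 4.55 CPM untreated. H1 summed to 98.5 to 129 CPM in Ado KO cells at 6 h, against 148 to 160 CPM untreated, without overlap. Control cells held 125 to 146 CPM at 6 h, against 136 to 165 CPM untreated, with overlap. In bulk RNA a change in the number of cells in S phase and a change in RNA per cell cannot be told apart.

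Gene by gene, limma (two-sided, adjusted over 13272 genes) called 24 members higher and 4 lower in Ado KO cells at 6 h against untreated. Over all genes, 4.42% were called higher and 2.02% lower. In control cells 40 members were called higher and 1 lower, where 7.74% of all genes were called higher and 10.3% lower. By class, the members called higher in Ado KO cells were 0 of 5 H1, 0 of 20 H2A, 5 of 14 H2B, 8 of 12 H3 and 11 of 13 H4. In control cells they were 0 of 5 H1, 4 of 20 H2A, 13 of 14 H2B, 12 of 12 H3 and 11 of 13 H4. All the members called in either genotype moved the same way in both guide populations. The calls rest on the mean of these same populations, so this is not separate evidence. The share of all called genes that did so is not given here. Hist1h2ao and Hist1h2ap, called lower in Ado KO cells, differed by -0.05 and -0.03 in guide 1 and by -0.59 and -0.62 in guide 2. The calls include Hist1h3d, Hist4h4 and Hist2h4, which passed the filter through their 6 h values. The median log2 difference in Ado KO cells was 0.90 for H2B, 1.502 for H3 and 1.71 for H4, against -0.05 over all genes. In control cells it was 1.81 for H2B, 2.33 for H3 and 2.17 for H4, against -0.09 over all genes. With guide 1 or guide 2 populations alone, the members called higher in Ado KO cells were 9 and 7, and without the Ado KO untreated library of guide 1, replicate 1, they were 15. The shares of all genes called in these smaller fits are not given here. With offsets from protein-coding genes in place of the authors' scaling, the calls over all genes in control cells split as 1224 higher and 599 lower, where they split as 1027 and 1365 as deposited. The 2 genotypes' counts come from separate comparisons, and the difference between them is tested further on.

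**Figure D3:**
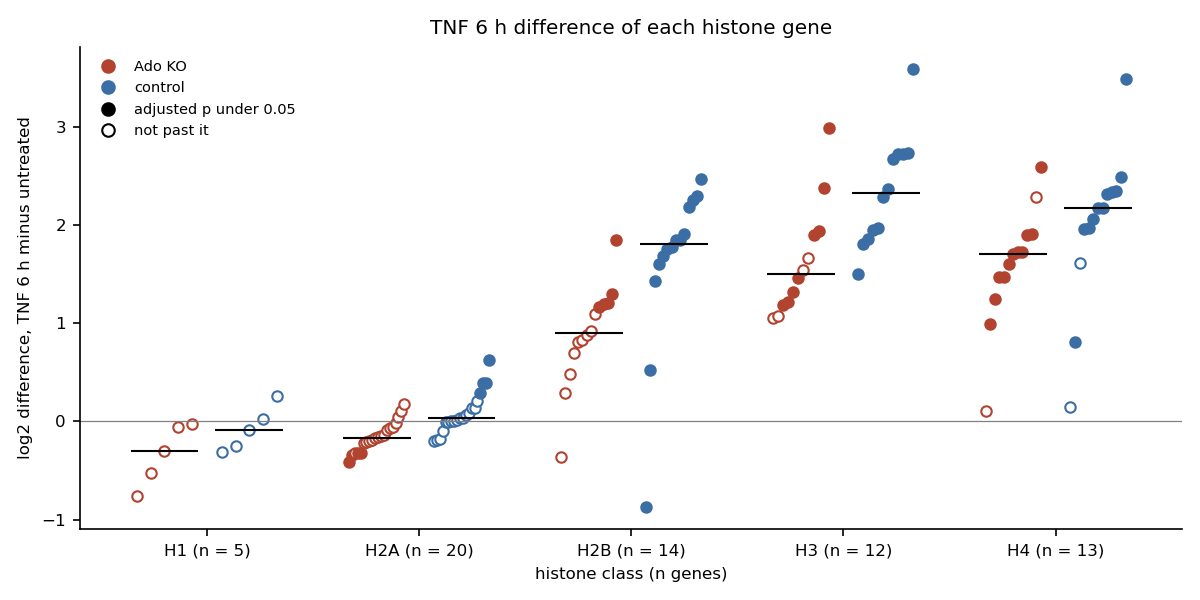
Log2 difference of each of the 64 members between TNF 6 h and untreated (y axis) by histone class (x axis), Ado KO in red at left and control in blue at right of each class; filled points have a limma adjusted p under 0.05, and bars are class medians. H2B, H3 and H4 members lie mostly above 0 in both genotypes, while H1 and H2A members lie near or below it.

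Small RNAs that carry no poly(A) tail moved with the H2B, H3 and H4 rows. Their share of the library sum was 1.44% to 1.704% in Ado KO cells at 6 h, against 0.283% to 0.387% untreated. In control cells it was 2.18% to 3.35% at 6 h, against 0.263% to 0.304% untreated. Of 347 such genes, 159 were called higher in Ado KO cells and 267 in control cells, with median log2 differences of 1.21 and 2.17 and 0 called lower. Rn7sk, the 7SK RNA, rose by 6.03 and 6.94, and the gene models Gm23624, Gm26035 and Gm24447 by 5.83 to 6.21 and by 6.84 to 7.23 (limma adjusted p at most 4.22e-23 for all 4 genes in both genotypes). Gm24447 averaged 11.23 and 12.09 log2 CPM at 6 h in Ado KO and control cells, beside 11.34 and 12.18 for Rn7sk. Whether such rows count the same tags was not tested. Between genotypes at 6 h, 46 of the 347 were called lower in Ado KO cells and 0 higher, where 79 of 13272 genes were called lower. At 1 h 23 of the 347 were called higher in Ado KO cells, and 3 untreated, with 0 lower. Over all genes 70 were called higher at 1 h and 9 untreated. The part of whatever raised these RNAs in the histone rises was not tested.

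The H3 members of the Hist2 cluster were, with Hist2h4, the 4 largest called rises in Ado KO cells. H3 is the core histone whose tail carries many of the regulatory marks of chromatin. Hist2h3c1 (chromosome 3, 96246685 to 96248509, plus strand) read 2.71, 2.31, 2.66 and 2.03 log2 CPM in Ado KO cells at 6 h, against -0.33, 0.60, 1.19 and 0.50 untreated. In control cells it read 3.30, 3.53, 3.32 and 3.11 at 6 h, against 1.06, 0.66, 0.21 and 0.45 untreated. No 6 h library overlapped an untreated one in either genotype. The log2 differences were 1.94 ± 0.32 (SE; limma adjusted p = 7.25e-05) in Ado KO cells and 2.72 ± 0.32 (adjusted p = 1.28e-07) in control cells. Hist2h3b (chromosome 3, 96268654 to 96269141, plus strand) rose by 2.99 ± 0.49 (limma adjusted p = 6.06e-05) in Ado KO cells and by 2.74 ± 0.49 (adjusted p = 0.000145) in control cells. It averaged 1.96 ± 0.20 log2 CPM at 6 h and -1.03 ± 0.82 untreated in Ado KO cells (SD, n = 4). Hist2h3c2 rose by 2.37 and 1.95 in Ado KO and control cells. These 3 genes share stretches of 50 bases.

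Among H3 members of the Hist1 cluster, Hist1h3d had the largest rise in control cells, 3.59 ± 0.64 (SE; limma adjusted p = 0.000118). It read 0.84, 1.56, 1.89 and 1.42 log2 CPM in control cells at 6 h, against -0.89, -3.35, -1.07 and -3.35 untreated. The value -3.35 is the lowest of the scale and is taken for a count of 0 tags, so the size of this difference depends on the offset the authors added. In Ado KO cells Hist1h3d differed by 1.54 ± 0.64 (limma adjusted p = 0.178). It reached 0 log2 CPM in 8 libraries, all of them at TNF 6 h. It thus passed the filter only through the groups where it is high, and its rise is not independent of that filter. Hist1h3i differed by 2.72 (limma adjusted p = 0.00102) in control cells, where it stood at -3.35 in 1 untreated library, and by 1.05 (adjusted p = 0.358) in Ado KO cells. Hist1h3c, the highest Hist1 member of H3, rose by 1.97 (limma adjusted p = 0.000664) in control cells, and its difference in Ado KO cells was 1.08 (adjusted p = 0.12).

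Of 13 H4 members 11 rose in each genotype, and the most abundant gene of the class was not among them. H4 pairs with H3 in the core of the nucleosome. Hist1h4n (chromosome 13, 21831767 to 21832196, minus strand) read 3.55, 3.45, 3.07 and 3.79 log2 CPM in Ado KO cells at 6 h, against 1.42, 1.68, 2.17 and 1.71 untreated. The control values were 4.08, 3.97, 3.75 and 3.62 at 6 h, against 2.20, 1.65, 2.14 and 1.59 untreated. The 6 h and untreated libraries did not overlap. The log2 differences were 1.72 ± 0.28 (SE; limma adjusted p = 3.68e-05) and 1.96 ± 0.28 (adjusted p = 2.76e-06). Hist1h4m rose by 1.91 (limma adjusted p = 0.0029) in Ado KO cells and by 2.33 (adjusted p = 0.000163) in control cells. Only 14.4% and 10.2% of the 50-base stretches of Hist1h4n and Hist1h4m stood in no other member. Whether these rows count the same tags was not tested. Hist4h4 (chromosome 6, 136801553 to 136804415, minus strand) rose by 3.49 ± 0.74 (limma adjusted p = 0.00109) in control cells. It shares no 50-base stretch with another member, but shares some with 12 genes that are not members. In Ado KO cells it differed by 2.28 ± 0.74 (adjusted p = 0.062). It stood at the bottom of the scale in 1 untreated library of each genotype. Hist2h4 rose by 2.59 (limma adjusted p = 0.0438) in Ado KO cells, where 2 untreated libraries stood at the bottom of the scale, and differed by 1.61 (adjusted p = 0.163) in control cells. Hist4h4 and Hist2h4 reached 0 log2 CPM in 7 and 8 libraries, all of them at TNF 6 h but 1 of Hist2h4. Both passed the filter through the groups where they are high, so their rises are not independent of that filter. The call of Hist2h4 was lost in 6 of 8 fits that left out 1 library.

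Hist1h4i (chromosome 13, 22040636 to 22041362, minus strand) was the exception. It read 5.86, 5.52, 5.91 and 5.84 log2 CPM in Ado KO cells at 6 h, against 5.45, 5.70, 5.84 and 5.70 untreated. It read 5.80, 5.75, 5.80 and 5.59 in control cells at 6 h, against 5.85, 5.78, 5.35 and 5.36 untreated. The groups overlapped in both genotypes. The log2 differences were 0.11 ± 0.12 (SE; limma adjusted p = 0.735) and 0.15 ± 0.12 (adjusted p = 0.429). Its annotated transcript runs 330 bases past the stem-loop printed above, where that of Hist1h4n runs 31. Other H4 genes also had long 3′ ends. Hist4h4 and Hist2h4 run 2445 and 1257 bases past the stem-loop, but their differences, described above, are not independent of the filter. Hist1h4j and Hist1h4c run 385 and 454 bases past theirs. Hist1h4j rose by 1.73 in Ado KO cells and 2.35 in control cells, and Hist1h4c by 1.71 and 1.97. Whether the length of the 3′ end bears on these differences was not tested. Hist1h4i made up 39.5% to 49.98% of the H4 sum in Ado KO cells at 6 h, against 64.0% to 70.7% untreated. The share in control cells was 30.5% to 36.4% at 6 h, against 58.0% to 75.7% untreated. The other 12 H4 genes together averaged 75.5 CPM in Ado KO cells at 6 h and 25.4 CPM untreated, and 106 CPM in control cells at 6 h and 26.2 CPM untreated. Hist1h4d, with 770 annotated bases past its stem-loop, had the smallest of the called H4 rises, 0.99 (limma adjusted p = 0.0241) in Ado KO cells and 0.80 (adjusted p = 0.0419) in control cells, and these calls were lost in 3 and 4 of 8 such fits.

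H2B members rose in control cells with 1 exception. H2B forms the dimers with H2A that flank the H3 and H4 core. Hist1h2bk (chromosome 13, 22035870 to 22036345, plus strand) read 3.02, 2.92, 2.79 and 2.59 log2 CPM in Ado KO cells at 6 h, against 1.66, 1.68, 1.19 and 1.97 untreated. The control values were 3.77, 3.06, 2.97 and 2.66 at 6 h, against 0.92, 1.97, 0.81 and 1.38 untreated. The groups did not overlap. The log2 differences were 1.21 ± 0.28 (SE; limma adjusted p = 0.00513) and 1.84 ± 0.28 (adjusted p = 1.36e-05). Hist1h2bc, the highest H2B gene, rose by 0.53 (limma adjusted p = 0.0367) in control cells, and its difference in Ado KO cells was 0.29 (adjusted p = 0.424). The control call was lost in 7 of 8 fits that left out 1 library.

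Hist2h2be (chromosome 3, 96221119 to 96223738, plus strand), which encodes an H2B variant known from mouse olfactory neurons, fell in control cells. It read 2.08, 1.95, 1.82 and 2.47 log2 CPM in control cells at 6 h, against 3.19, 3.12, 2.64 and 2.87 untreated, with no overlap. The log2 difference was -0.87 ± 0.21 (SE; limma adjusted p = 0.00311). In Ado KO cells it read 2.00, 2.45, 2.66 and 2.94 at 6 h, against 2.87, 2.91, 2.84 and 2.87 untreated, and the difference was -0.36 ± 0.21 (adjusted p = 0.381). The difference between genotypes was 0.51 ± 0.29 in the interaction (limma adjusted p = 0.795). Hist2h2be shares no 50-base stretch with another member, and no stem-loop was found in its annotated transcript.

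H2A members moved little at 6 h. The 4 called lower in Ado KO cells were Hist1h2aa (-0.42 ± 0.12, SE; limma adjusted p = 0.0288), Hist2h2ac (-0.34; 0.0177), Hist1h2ap (-0.32; 0.041) and Hist1h2ao (-0.32; 0.0254). Hist1h2aa is a testis form of H2A. Hist1h2ao read 10.14, 9.93, 9.99 and 9.88 log2 CPM in Ado KO cells at 6 h, against 10.16, 10.01, 10.69 and 10.36 untreated. Of the untreated libraries those of guide 2 were the higher (10.69 and 10.36), and the groups overlapped through guide 1. With guide 2 populations alone 18 members were called lower in Ado KO cells, and with guide 1 populations alone 0 were. How many of all genes were called in those fits is not given here, so whether this is particular to the members was not tested. Leaving out either guide 2 library at 6 h, or either one untreated, left 0 members called lower. Leaving out guide 1, replicate 2, left 1 at 6 h and gave 8 untreated. The 4 called higher in control cells were Hist2h2ab (0.63), Hist2h2aa2 (0.39), Hist1h2an (0.39) and Hist2h2aa1 (0.29). The median H2A difference was -0.16 in Ado KO cells and 0.03 in control cells.

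The H1 histones bind the linker DNA between nucleosomes, and whether any H1 member was called at 6 h depended on the outlying library. With it, limma called 0 of 5 in either genotype. At an unadjusted p under 0.05, 2 of 5 were lower in Ado KO cells and 0 in control cells, where 9.62% and 19.4% of all genes were lower. Without it, 2 were called lower in Ado KO cells, Hist1h1b and Hist1h1e, and 1 in control cells, Hist1h1e. Hist1h1b averaged 4.03 ± 0.21 log2 CPM in Ado KO cells at 6 h and 4.78 ± 0.15 untreated (SD, n = 4), a difference of -0.76 ± 0.29 (SE; limma adjusted p = 0.128). The 4 libraries at 6 h read 4.00, 4.33, 3.88 and 3.90, all below the untreated 4.76, 4.63, 4.99 and 4.75. Hist1h1e differed by -0.53 (limma adjusted p = 0.205) and Hist1h1c by -0.30 (adjusted p = 0.48) in Ado KO cells. The error of the fit is shared by all groups, and without the outlying library it was smaller for these genes. Hist1h1b then differed by -0.76 ± 0.15 (SE; limma adjusted p = 0.000781) and Hist1h1e by -0.53 ± 0.09 (adjusted p = 8.15e-05) in Ado KO cells. In control cells Hist1h1e differed by -0.25 ± 0.09 (limma adjusted p = 0.0424) and Hist1h1b by -0.31 ± 0.15 (adjusted p = 0.152). That alternative was chosen after the data were seen.

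At 1 h few members passed the test. In Ado KO cells 0 of 64 were called, where 0.256% of all genes were called in either direction, and 17 were higher and 0 lower at an unadjusted p under 0.05 (3.77% and 3.49% of all genes). In control cells 2 were called higher, where 0.332% of all genes were, and 20 were higher and 0 lower at an unadjusted p under 0.05 (7.78% and 6.36% of all genes). The called members were Hist2h2aa2, at 6.81, 7.24, 6.94 and 6.91 log2 CPM at 1 h against 6.33, 6.35, 6.75 and 6.52 untreated, and Hist1h2aj, at 8.28, 8.45, 8.41 and 8.37 at 1 h against 7.84, 7.98, 8.24 and 8.01 untreated. The differences were 0.49 ± 0.11 (SE; limma adjusted p = 0.0351) and 0.36 ± 0.08 (adjusted p = 0.0402). GENCODE M21 annotates Hist1h2aj as an unprocessed pseudogene. Without the outlying library neither was called, and leaving out any other library of the comparison gave 0 to 5 calls. All 20 H2A members had a positive difference at 1 h in each genotype, with medians of 0.23 and 0.23 in Ado KO and control cells, but these rows share sequence. Of all 13272 genes, 6576 and 5934 had a positive difference. Hist1h1b differed by 0.65 ± 0.29 (limma adjusted p = 0.295) in control cells at 1 h, and by 0.09 ± 0.16 (adjusted p = 0.892) without the outlying library. Hist1h1a differed by 0.92 with that library and by 0.08 without it.

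Between genotypes no member was called. For Ado KO against control, 0 of 64 were called untreated, 0 at 1 h and 0 at 6 h, where 0.249%, 1.06% and 1.02% of all genes were called. At an unadjusted p under 0.05 the counts were 21 higher and 1 lower untreated, 17 higher and 0 lower at 1 h, and 0 higher and 2 lower at 6 h. Over all genes the shares higher and lower were 4.05% and 4.73% untreated, 8.47% and 7.31% at 1 h, and 6.69% and 4.7% at 6 h. The interaction of genotype with TNF at 6 h called 0 members, where 0.347% of all genes were called, and 12 members had a lower response in Ado KO cells at an unadjusted p under 0.05, as had 3.39% of all genes. Of the 64 members, 59 had a lower 6 h difference in Ado KO cells than in control cells, as had 5985 of 13272 genes. The median interaction was -0.33 over members and 0.03 over all genes. Members share sequence, so these rows are not separate measurements. The small RNAs without a poly(A) tail had a median interaction of -0.95, with 35 of 347 called lower, and their part in the histone values was not tested. For 12 H3 genes the median interaction was -0.74 and for 14 H2B genes -0.83. Part of this lies in the untreated cells: the H2B sum averaged 43.0 CPM in Ado KO cells and 32.9 CPM in control cells untreated, and 70.8 and 77.4 CPM at 6 h. The comparisons share the untreated libraries, so they are not separate evidence.

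H2A and H2B genes of the cluster often lie head to head, and the 12 such pairs with start sites within 500 bases (176 to 306 bases apart) gave unequal levels. In all 12 the H2A gene had the higher mean level, by 3.43 to 8.43 log2 units (median 7.29). Hist1h2ae averaged 8.93 log2 CPM over the 24 libraries and its neighbour Hist1h2bg 0.77. At 6 h the H2B gene of 11 pairs had the higher log2 difference in Ado KO cells and of 11 in control cells. Hist1h2bg differed by 1.84 and 2.47 in Ado KO and control cells, and Hist1h2ae by -0.17 and 0.01. The exception was Hist2h2ac with Hist2h2be.

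**Figure D4:**
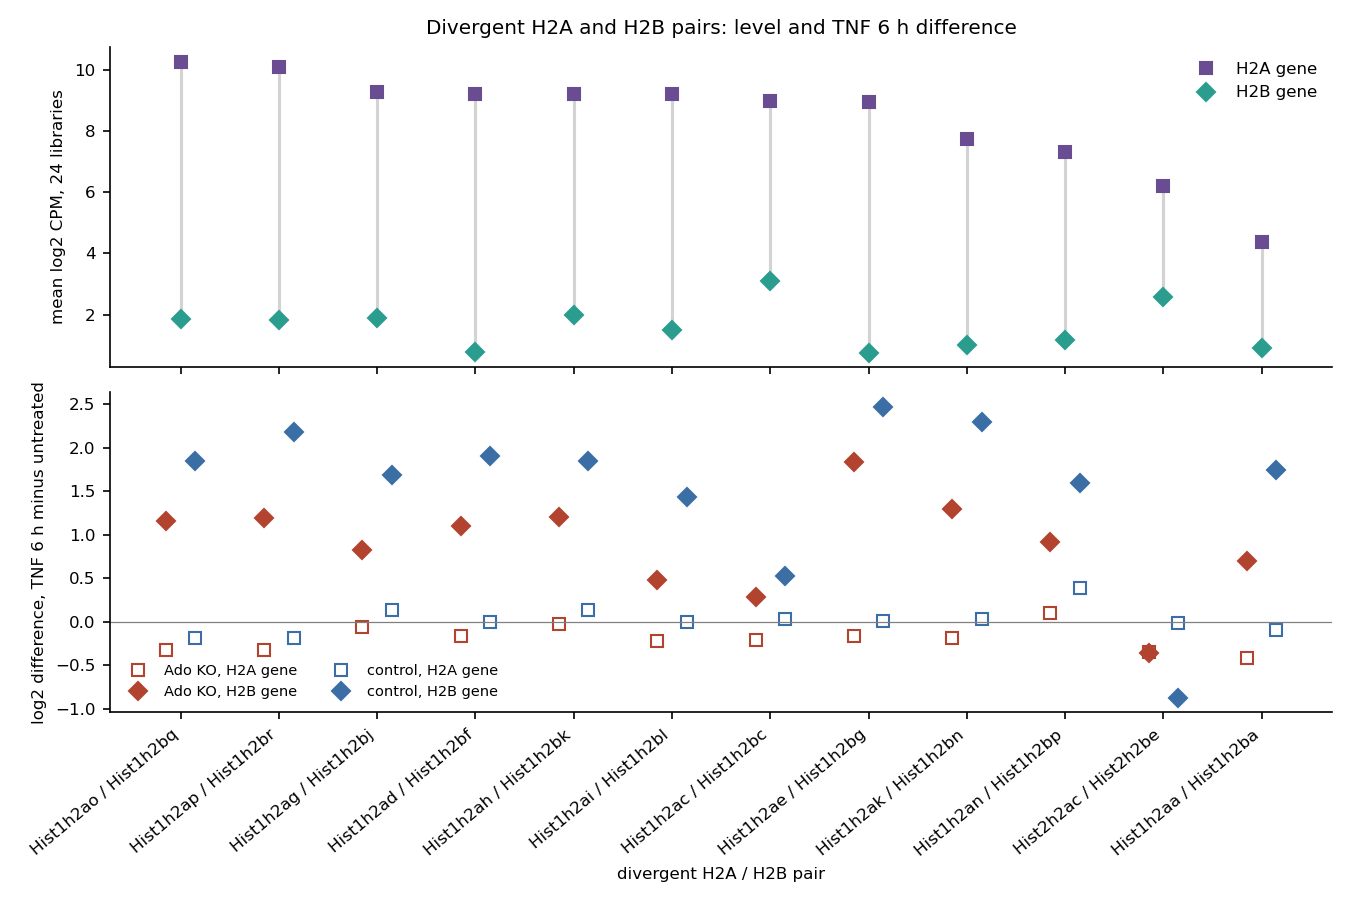
The 12 divergent H2A and H2B pairs (x axis). The upper panel gives the mean log2 CPM over 24 libraries (purple squares H2A, green diamonds H2B), with the H2A gene above the H2B gene in every pair, and the lower panel the log2 difference between TNF 6 h and untreated, Ado KO in red at left and control in blue at right, with H2A as open squares and H2B as filled diamonds.

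The shared upstream region of Hist1h2bk and Hist1h2ah is shown as an example of a region between a pair whose members differ in both level and response. The stretch is chr13:22035571-22035870 (GRCm38.p6, plus strand, from 250 bases before to 50 after the RefSeq start of Hist1h2bk). Capitals mark CCAAT and the octamer ATTTGCAT on either strand.
Hist1h2bk: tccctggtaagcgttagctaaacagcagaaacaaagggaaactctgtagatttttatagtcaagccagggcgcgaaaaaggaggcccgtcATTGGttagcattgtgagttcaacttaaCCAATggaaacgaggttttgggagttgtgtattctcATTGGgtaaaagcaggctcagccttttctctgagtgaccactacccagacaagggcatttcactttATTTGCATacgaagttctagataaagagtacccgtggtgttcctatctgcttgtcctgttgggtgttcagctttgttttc

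RefSeq promoters of that length were found for 56 of 64 members. CCAAT, searched on both strands, stood in 47 of 56, against 37.9% of all gene promoters. It stood in every H1, H2A, H2B and H3 promoter found and in 3 of 12 H4 promoters. TATAAA stood in 29 of 56, against 8.88% of all. The octamer ATTTGCAT stood in 7 of 17 H2A and 4 of 12 H2B promoters and in 0 of the other classes, against 1.75% of all. An NF-kB consensus stood in 0 of 56, against 8.18% of all. Paired genes share much of these windows, and a match or its absence describes the letters in the window only.

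The 2 highest members of all, Hist1h2ao (chromosome 13, 21810465 to 21810944, plus strand; mean 10.26 log2 CPM) and Hist1h2ap (mean 10.10), carry a run of A directly before the stem-loop. It is shown because oligo-dT priming bears on such a run, which is in capitals.
Hist1h2ao: gaaaagAAAAAAAAAAAA
Hist1h2ap: gaaaagAAAAAAAAAAAA
Hist1h2ac: gagAAAAAAAAAAAAAAA
In Hist1h2ao and Hist1h2ap the run ends where the stem-loop begins. In Hist1h2ac (mean 8.97 log2 CPM) it lies beyond the stem-loop. Only 4 of the 64 members had 16 or more A in 18 bases. The fourth, Hist1h1d, was low, at a mean of 2.83 log2 CPM. Whether tags came from these runs was not tested, since read positions were not used here.

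The level of the other 18 H2A genes went with the sequence they share with Hist1h2ao and Hist1h2ap. The 9 genes that had over 40% of their 50-base stretches in those transcripts averaged 7.31 to 9.27 log2 CPM (median 9.20). The 8 that had under 20% averaged 4.35 to 8.97 (median 6.52). Hist1h2ae, between these limits with 30.1%, averaged 8.93. Hist1h2ah, for which no stem-loop was found, had 73.3% and averaged 9.20, and Hist1h2aa had 1.47% and averaged 4.37. Spearman's rho over the 18 genes was 0.75, as a description, since the genes share sequence and libraries. Hist1h2ac, with 10.8%, was high for its share, and Hist1h2an, with 64.2% and a mean of 7.31, was low for its own. The share is taken over the whole annotated transcript, so it also depends on length. That transcript is 2482 bases long for Hist1h2ac and 405 for Hist1h2ah. Hist1h2ag, the highest of the 18, averaged 9.27.

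**Figure D5:**
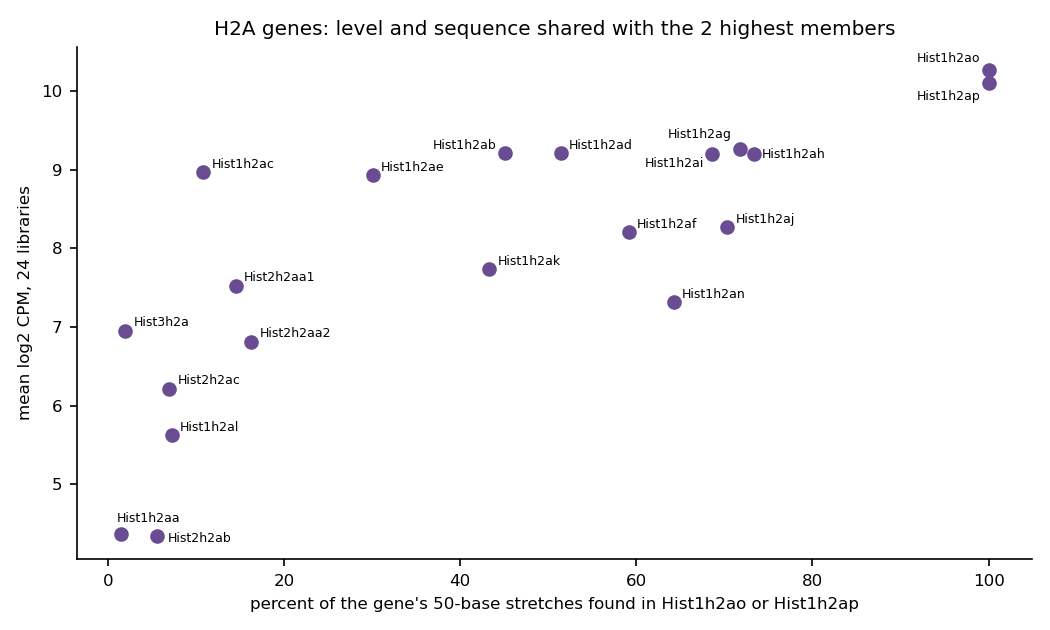
Mean log2 CPM over 24 libraries (y axis) of each of 20 H2A genes against the percent of its 50-base stretches found in Hist1h2ao or Hist1h2ap (x axis). Genes that share more tend to be higher, but Hist1h2ac is high and Hist1h2an low for their shares. The percent is of the whole annotated transcript, which is 2482 bases long for Hist1h2ac.

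Grouped by the annotated 3′ end, the 19 members that run over 100 bases past the stem-loop had a median 6 h difference of 1.54 in Ado KO and 1.77 in control cells. The 21 that end nearer had medians of 0.92 and 1.84, and the 24 with no stem-loop 0.20 and 0.58. The groups differ in their classes. The first also holds Hist1h3d, Hist2h4 and Hist4h4, which passed the filter through their 6 h values. Within H3 and H4 the 3 medians were 1.73, 1.54 and 1.23 in Ado KO cells and 2.35, 2.12 and 2.33 in control cells.

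Genes that act on these messages were tested with all others. Over all genes, 4.42% were called higher and 2.02% lower in Ado KO cells at 6 h, and 7.74% and 10.3% in control cells. Of 20 measured genes for histone message processing, transcription and decay, 0 passed the test in Ado KO cells at 6 h. In control cells 3 were lower, Coil (coilin; -0.60, limma adjusted p = 0.0112), Sympk (symplekin, of the cleavage complex; -0.27, 0.0379) and Upf1 (a helicase of RNA decay; -0.27, 0.0401). Slbp averaged 4.97 ± 0.11 log2 CPM in Ado KO cells at 6 h and 5.19 ± 0.13 untreated (SD, n = 4), a difference of -0.22 ± 0.11 (SE; limma adjusted p = 0.256), and the difference in control cells was -0.08 ± 0.11 (adjusted p = 0.649). Npat, the activator of histone gene transcription, differed by 0.09 and -0.04 in Ado KO and control cells, its partner Casp8ap2 by 0.06 and 0.17, and the exonuclease gene Eri1 by -0.07 and 0.33 (limma adjusted p 0.0634 or more for all 6). Of 10 replication-independent histone genes, H1f0 was lower in both genotypes (-0.39 and -0.44; limma adjusted p = 0.00632 and 0.00136) and the others did not pass. Cenpa, H1fx and H2afv differed by -0.12, -1.05 and -0.23 in Ado KO cells and by -0.20, -0.98 and -0.21 in control cells.

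No S phase gene was called higher at 6 h. Of 28, 0 were higher and 2 lower in Ado KO cells at 6 h, and 0 higher and 6 lower in control cells. Over all genes the shares called higher and lower were 4.42% and 2.02% in Ado KO cells, and 7.74% and 10.3% in control cells. Tk1 (thymidine kinase) differed by -0.37 and -0.44 (limma adjusted p = 0.00169 and 0.000119 in Ado KO and control cells), Mcm7 by -0.26 and -0.27, Gins2 by -0.19 and -0.41, and Ccne1 by -0.09 and -0.51, the first values of the last 2 not past the test. Of 16 G2/M genes, 0 were higher and 3 lower in Ado KO cells, namely Plk1 (-0.26), Aurka (-0.26) and Ccnb2 (-0.32). In control cells Top2a was higher (0.50), and Plk1 (-0.27), Aurka (-0.27) and Ccnb2 (-0.45) were lower. Of 17 histone chaperone genes, Ubn1 was lower in both genotypes (-0.42 and -0.59), and in control cells Chaf1b (-0.41) and Cabin1 (-0.31) were lower and Asf1a (0.61) higher. Of 19 nuclear exosome genes, Mphosph6 was higher in both (0.34 and 0.34) and Skiv2l2 was higher in control cells (0.42). Of 14 cleavage and polyadenylation genes, 0 passed in Ado KO cells, and in control cells Pcf11 was higher (0.63) and Wdr33 lower (-0.30). In the same cells Cpsf1 and Cpsf7 differed by -0.17 and -0.24, C1d and Zcchc7 by 0.38 and 0.47, and did not pass.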

How the data were processed

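Total RNA from 24 MC38 libraries was profiled with a 3′ mRNA kit. The submitters' processing notes list limma, HISAT2, cutadapt 1.7, Subread, featureCounts and FastQC, and the builds mm10 and GRCm38; how tags that match several genes were counted is not given in the sources used here. The deposited values are log2 CPM, normalised by the authors; unit and quantile-like scaling were inferred from the values, and library depth is unknown. For control guide 2 at 1 h, titles and column names give opposite replicate numbers, and numbers here follow the titles.

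Members and lists were chosen with earlier results of these data known. Genes with 0 or more in at least 4 libraries (13272) entered limma 3.58.1 (R 4.3.3, statmod 1.5.0), with 6 group means, guide population as a random block (correlation 0.0485) and a variance trend. Tests were two-sided with Benjamini-Hochberg adjustment, and adjusted p under 0.05 was called. The fit was tested on simulated data. Fold changes are differences of log2 values, bounded by the bottom of the scale. Deviations from the group means correlated at -0.158 to 0.054 between libraries with the same replicate number (12 pairs), so numbers were not used as pairs. No 2 libraries were identical.

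Transcripts, positions and biotypes came from GENCODE M21 (GRCm38), promoters from RefSeq (GRCm38.p6). Stem-loops were sought in Python 3.11.15, and figures drawn with matplotlib 3.10.9. Genes named are Ado, the 3 highest members of a class, the 5 largest called rises and falls of each 6 h comparison, members called elsewhere (up to 5 a comparison), the highest member of each 3′ end group, and up to 4 genes of each list; members of pairs, members that share no stretch, Hist1h1a, Hist1h1d, Hist1h4c, Hist1h4j and Hist1h2ab with Hist1h2ai, and the other called H2A genes, were added after their values were seen. Hist1h2al was named for its position. Alternatives were other filters, block terms, scaling, and leaving out libraries or guides.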

Additional observations from a re-analysis of the deposited data

Results flagged for a closer look

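The highest or lowest of 4 libraries lay far from the other 3, against the range of its group, in 13 of 192 sets of 4 libraries (5 class sums and 27 named members in 6 groups), where chance gives about 1 in 20. In the control TNF 1 h library of guide 1, replicate 2, the H1 sum was 677 CPM (others 145 to 171), Hist1h1e 8.44 log2 CPM (others 6.34 to 6.60) and Hist1h1b 7.00 (others 4.71 to 4.76). The Ado KO untreated library of guide 1, replicate 2, had an H2B sum of 49.1 CPM (others 40.6 to 41.5) and Hist1h1e at 6.34 (others 6.45 to 6.47). Hist1h1c was 4.25 in Ado KO TNF 6 h guide 2 replicate 2 (others 4.54 to 4.60) and 5.04 in control untreated guide 1 replicate 1 (others 4.93 to 4.95).

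Among H3 and H4 genes, Hist2h3c2 was -0.0609 in Ado KO TNF 1 h guide 2 replicate 2 (others 1.42 to 1.67) and 0.17 in control TNF 1 h guide 1 replicate 1 (others 1.30 to 1.39). Hist1h3c was -0.93 in that control library (others 0.69 to 0.97). Hist2h3b was 2.26 in Ado KO TNF 6 h guide 1 replicate 1 (others 1.82 to 1.89). Hist2h4 was -0.26 in Ado KO TNF 1 h guide 1 replicate 1 (others at -3.35, the bottom of the scale) and -1.18 in Ado KO TNF 6 h guide 2 replicate 2 (others 0.60 to 0.97).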

How the results depend on the processing

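In Ado KO cells at 6 h, 24 members were called higher and 4 lower. The higher calls were 7 without guide 1 and 9 without guide 2. The lower calls were 18 without guide 1 and 0 without guide 2, 7 with guide populations as fixed terms, 2 with no variance trend and 1 with offsets from protein-coding genes. Leaving out single libraries gave 15 to 22 higher and 0 to 8 lower calls. The shares of all genes called in these fits are not given here. In control cells at 6 h, 40 were called higher (35 to 40 without single libraries). The 1 lower call became 2 with fixed guide terms, 0 without guide 1 and 2 without the control TNF 1 h library that stands apart (an alternative chosen after seeing the data). Without that library the calls in Ado KO cells at 6 h were 27 higher and 6 lower, the lower ones including Hist1h1b and Hist1h1e.

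At 1 h the 0 calls in Ado KO cells became 1 with fixed guide terms (0 to 3 without single libraries). The 2 calls in control cells became 10 with fixed guide terms, and 0 with no guide term, with no variance trend, without guide 1 or without the library that stands apart (0 to 5 without single libraries). Between genotypes the 0 calls became, untreated, 1 with fixed guide terms and 8 without guide 1 and, at 1 h, 3 with fixed guide terms and 1 with no guide term, with the replicate block or without guide 2 (0 to 1 without single libraries). The interaction gave 1 without guide 1. The replicate block, whose numbers do not pair these libraries, gave 23 higher and 4 lower in Ado KO cells and 40 and 1 in control cells at 6 h. The cause of these shifts was not tested.

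As a median over members instead of a sum, the log2 change at 6 h in Ado KO cells was -0.68 for H1 (sum -0.47), 0.85 for H2B (0.72), 1.43 for H3 (1.501) and 1.52 for H4 (0.77). In control cells it was 0.15 for H2A (sum -0.00, of the other sign), 1.65 for H2B (1.23) and 2.12 for H4 (1.09). With 50 bases as the limit, the median of members that run past the stem-loop was 1.27 in Ado KO cells. Of 438 values for called named members, 366 kept their call, 72 lost it and 0 reversed. Depth limits Hist1h3d, Hist1h3i, Hist2h4 and Hist4h4, which stand at the bottom of the scale in 1 or more untreated libraries.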
